A study of Mus musculus with 18 samples.

Results

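The comparison asks how the prostate transcriptome of 30-week-old mice that carry the ELAC2 A537T missense change differs from that of wild-type mice when both carry the same tumour-inducing transgene. Its members were all genes whose mean normalised count over the 6 libraries was at least 10, which left 16261 of the 55469 features in the table. The groups were A537T-TRAMP (homozygous ELAC2 A537T, TRAMP +/-; libraries 13 to 15) and WT-TRAMP (ELAC2+/+, TRAMP +/-; libraries 10 to 12). All 6 were males aged 30 weeks on the background labelled C56NL/6N, 3 libraries per group. TRAMP is a transgene in which the probasin promoter drives simian virus T antigens in prostatic epithelium, so every library, controls included, came from a prostate undergoing transgene-driven tumorigenesis. The amino acid change was made by genome editing of the mouse Elac2 gene and is therefore present in all cells of the animal, not in the prostate alone. The series also holds 10-week-old mice and a prostate-specific Elac2 knockout, and measured total RNA of the ventral and lateral lobes by short-read sequencing. Libraries are named here by the number in their column header, which carries no replicate number and cannot be tied to a named mouse, so p-values measure only the spread between these libraries.

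ELAC2 is RNase Z, the endonuclease that cuts the 3′ trailer from precursor tRNAs in the nucleus and in mitochondria. Mitochondrial transcripts are made as long polycistronic RNAs in which tRNAs lie between mRNAs, so tRNA excision also releases the mRNAs whose protein products build the respiratory chain. The prostate itself is a gland of secretory luminal cells lying on basal cells and a fibromuscular stroma, and stromal fibroblasts are its known source of collagens and of insulin-like growth factors that act on the epithelium.

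The 6 libraries held 9594237 to 14038038 recovered reads. Luminal secretory markers were high in all of them, with a mean log2 level over 15 genes of 11.15 to 11.58, and Mki67 was read at 3017 to 6406 normalised counts. Seminal vesicle transcripts, although that gland was dissected away according to the labels, made up 1.85% to 5.45% of reads in libraries 10, 12, 13 and 15 and 0.000106% and 0.000313% in libraries 11 and 14. This division cut across genotype. Neuroendocrine markers stood apart in another way. Chga had 229, 0 and 117 normalised counts in WT-TRAMP libraries 10 to 12 and 4.92, 9.54 and 2.99 in A537T-TRAMP libraries 13 to 15. Insm1 had 202, 0 and 112 against 1.64, 0 and 0. Both genes passed the filter on low values only through WT-TRAMP. Adipocyte markers were lower in A537T-TRAMP in all 18 genes of the list with no filter on low values, and the mean log2 level of the tested members, at 6.65, 7.78 and 7.399 in WT-TRAMP, did not overlap the 5.35, 3.83 and 4.49 of A537T-TRAMP. The mean levels of the macrophage list (6.69, 6.42 and 6.71 against 7.31, 6.75 and 6.83) and of the nerve and Schwann cell list (6.79, 5.98 and 6.27 against 7.38, 6.84 and 7.02) were higher without overlap, and that of the B and plasma cell list (8.26, 8.07 and 8.12 against 7.97, 7.01 and 7.21) was lower. In bulk tissue, fewer cells of a type and less RNA per cell cannot be told apart.

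**Figure D1:**
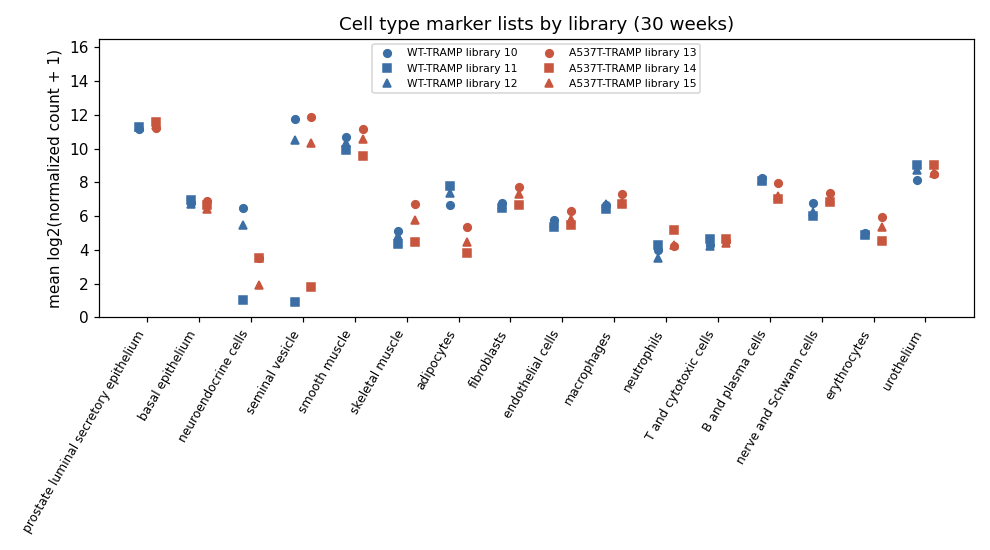
Mean log2(normalised count + 1) over the tested members of each cell type marker list (vertical axis, log2 scale) in each of the 6 libraries at 30 weeks; blue points are WT-TRAMP, red points A537T-TRAMP, and symbol shapes only tell libraries of a group apart. Seminal vesicle genes are near the floor in libraries 11 and 14, neuroendocrine genes are high in libraries 10 and 12, and adipocyte genes do not overlap between the groups.

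No gene passed an adjusted p of 0.05 in limma, where the smallest adjusted p was 0.124, so every difference described here lies below that threshold. At an unadjusted p under 0.05 limma held 1173 genes, of which 647 (3.98% of those tested) were higher in A537T-TRAMP and 526 (3.23%) lower. All 3 A537T-TRAMP libraries lay above all 3 WT-TRAMP libraries in 1196 genes (7.36%) and below them in 981 (6.03%). On the recovered reads edgeR also called 0 genes, with 1382 at an unadjusted p under 0.05, whereas DESeq2 called 165, of which 85 were higher (0.523% of genes tested) and 80 lower (0.492%). Fold changes were centred, with 8138 positive and 8123 negative values and a median log2 fold change of 0.00. The higher share among genes at an unadjusted p under 0.05 was 55.2% in limma, 45.4% in edgeR and 44.3% in DESeq2. Leaving out library 11 raised the adjusted limma calls to 136, of which 125 were lower; without library 13 there were 6 and without library 14 there were 3.

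Elac2 itself (ENSMUSG00000020549.14, chr11:64979038-65002069 in GRCm38, plus strand) overlapped between the groups. It had 233, 295 and 286 normalised counts in WT-TRAMP libraries 10 to 12 and 258, 287 and 292 in A537T-TRAMP libraries 13 to 15. The A537T-TRAMP mean was 103% of the WT-TRAMP mean, with a log2 fold change of 0.05 ± 0.13 (SE, n = 3 per group) and a p of 0.8 in an exact permutation test, two-sided, where 3 against 3 cannot go below 0.1. A gene-level count does not read the missense change, so this level does not check the genotype labels.

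The insulin-like growth factor axis held the largest log2 fold change among the 15 higher genes named for their smallest p. Igf1 (ENSMUSG00000020053.18, chr10:87858265-87937042, plus strand), the secreted ligand that signals through the IGF1 receptor, had 164, 136 and 114 normalised counts in WT-TRAMP and 682, 506 and 955 in A537T-TRAMP. Every mutant library was above every control library, and the log2 fold change was 2.33 ± 0.25 (SE, n = 3 per group; limma adjusted p = 0.124, DESeq2 adjusted p = 2.72e-14). Igf2, the other ligand, had 35.8, 17.0 and 41.6 against 17.2, 17.9 and 15.9, and the groups overlapped.

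Binding proteins, which hold IGF ligands in the extracellular space and set their access to the receptor, differed among themselves. Igfbp4 (ENSMUSG00000017493.12, chr11:99041244-99054392, plus strand) had 177, 126 and 164 normalised counts in WT-TRAMP and 411, 469.8 and 455 in A537T-TRAMP, a log2 fold change of 1.52 ± 0.16 with the smallest p in the limma fit (adjusted p = 0.124). Igfbp6, which prefers IGF2, had 64.3, 77.1 and 72.5 against 263, 120.4 and 165 (1.28 ± 0.28, limma adjusted p = 0.436). Igfbp2 had 215, 185 and 201 against 611, 249 and 309, with library 13 far above the rest. Igfbp3, Igfbp5 and Igfbp7 overlapped between the groups. Htra1, a serine protease that cuts IGF binding proteins, had 69.6, 58.3 and 54.4 against 99.95, 75.1 and 111.

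Receptors and their adaptors were not higher. Igf1r, the receptor of IGF1, had 2638, 2349 and 2417 normalised counts in WT-TRAMP and 2193, 2398 and 2018 in A537T-TRAMP, with overlapping groups. The insulin receptor Insr had 2109, 2416 and 2081 against 2062, 2015 and 1884, and the adaptor Irs1 had 1488, 1339.8 and 1373 against 1109, 1295 and 1225, both lower in every mutant library by a small margin. Over the 19 tested members of the axis 9 were higher and the median log2 fold change was -0.03, against 0.00 over all genes tested. An unadjusted p under 0.05 was reached by 5, all higher, against 3.98% of all genes.

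**Figure D2:**
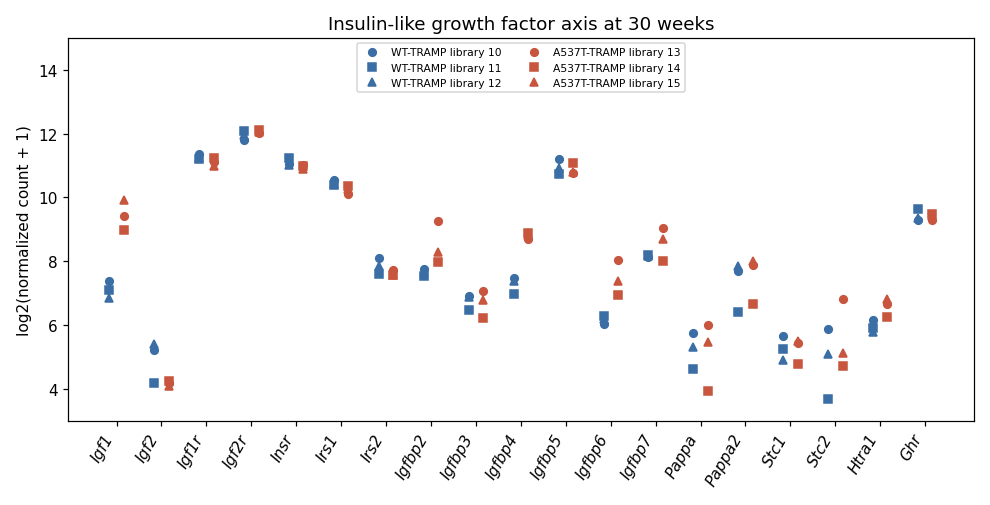
Log2(normalised count + 1) of the 19 tested genes of the insulin-like growth factor axis (vertical axis, log2 scale) in each library at 30 weeks; blue points are WT-TRAMP, red points A537T-TRAMP. Igf1, Igfbp2, Igfbp4, Igfbp6 and Htra1 are higher in all 3 A537T-TRAMP libraries, while Igf1r overlaps between the groups.

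Most members of the extracellular matrix lists were higher in A537T-TRAMP. Of 26 tested fibrillar collagen and collagen processing genes 24 were higher, 15 without overlap between the groups (7.36% of all genes tested) and 1 lower without overlap, and the median log2 fold change was 0.56. Col1a1 (ENSMUSG00000001506.10, chr11:94936224-94953042, plus strand), which encodes the alpha chain that makes up most of type I collagen, had 539.6, 643 and 564 normalised counts against 1037, 1226 and 1114, a log2 fold change of 0.95 ± 0.11 (limma adjusted p = 0.137). Its partner chain Col1a2 had 883, 925 and 972 against 1945, 1483 and 1693. Col3a1, of type III collagen, had 1395, 1304 and 1776 against 3724, 2809 and 3218 (1.13 ± 0.15, limma adjusted p = 0.179).

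Several proteins that mature collagen were higher along with its chains. Serpinh1, the collagen-specific chaperone of the endoplasmic reticulum, had 276, 240.3 and 239 normalised counts in WT-TRAMP against 642, 457 and 465 in A537T-TRAMP, a log2 fold change of 1.03. Adamts2, which removes the amino-terminal propeptide, had 41.1, 52.0 and 52.3 against 156, 87.0 and 119.6. Lox, the oxidase that starts collagen cross-linking, had 113, 148 and 124 against 315, 281 and 224. For these 3 genes the lowest A537T-TRAMP library lay well above the highest WT-TRAMP library. Tgm2, a transglutaminase that cross-links matrix proteins, had 551, 556 and 542 against 827, 876 and 852. Col5a1, which regulates fibril diameter, had 163, 189 and 188 against 361, 339.8 and 333. DESeq2 called 10 of the 26 genes higher, where it called 0.523% of all genes tested higher, and 0 lower.

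Matricellular and elastic fibre genes were higher in most members too. Tnc, the tenascin of remodelling stroma (chr4:63959785-64047015, minus strand), had 83.3, 78.9 and 69.3 normalised counts in WT-TRAMP and 182, 209.9 and 183 in A537T-TRAMP, a log2 fold change of 1.30 ± 0.15 (limma adjusted p = 0.137). Sparc, a collagen-binding glycoprotein, had 754, 716 and 782 against 1929, 1061 and 1384. In that list 29 of 35 tested genes were higher, 9 without overlap (7.36% of all genes tested), with a median log2 fold change of 0.57, and leaving out library 13 lowered the median to 0.33. Basement membrane genes were higher in 18 of 22, 4 without overlap against 7.36% of all genes, with a median of 0.32 that was 0.12 without library 13 and 0.18 without library 11. Among them Col15a1 had 208, 180.3 and 211 against 459.6, 346 and 408. Matrix proteases and their inhibitors were higher in 15 of 19, 6 without overlap (7.36% of all genes tested). Among them were Mmp2, a gelatinase, with 197, 197 and 221 against 381, 272 and 338, and Plat, the tissue plasminogen activator, with 49.5, 61.9 and 70.4 against 99.95, 118 and 108. The mean log2 levels of these lists overlapped through library 14. It had 7.07 for elastic fibre and matricellular genes, 8.26 for basement membrane and 7.18 for matrix proteases. The highest WT-TRAMP means were 7.15, 8.36 and 7.29.

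Fibroblast markers overlapped between the groups. Their mean log2 level was 6.77, 6.51 and 6.65 in WT-TRAMP and 7.71, 6.66 and 7.29 in A537T-TRAMP, with 11 of 14 higher and a median log2 fold change of 0.76. The collagen list, in contrast, did not overlap, at 7.60, 7.48 and 7.57 against 8.38, 7.95 and 8.10. In both lists library 13 had the highest mutant mean and library 14 the lowest, the order also seen in Col1a2, Col3a1 and Sparc, whereas Col1a1, itself a member of the fibroblast list, was highest in library 14. Pdgfra, a fibroblast receptor, had 405, 307 and 329 against 946, 421 and 566. The part of fibroblast number in the matrix result was not tested.

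**Figure D3:**
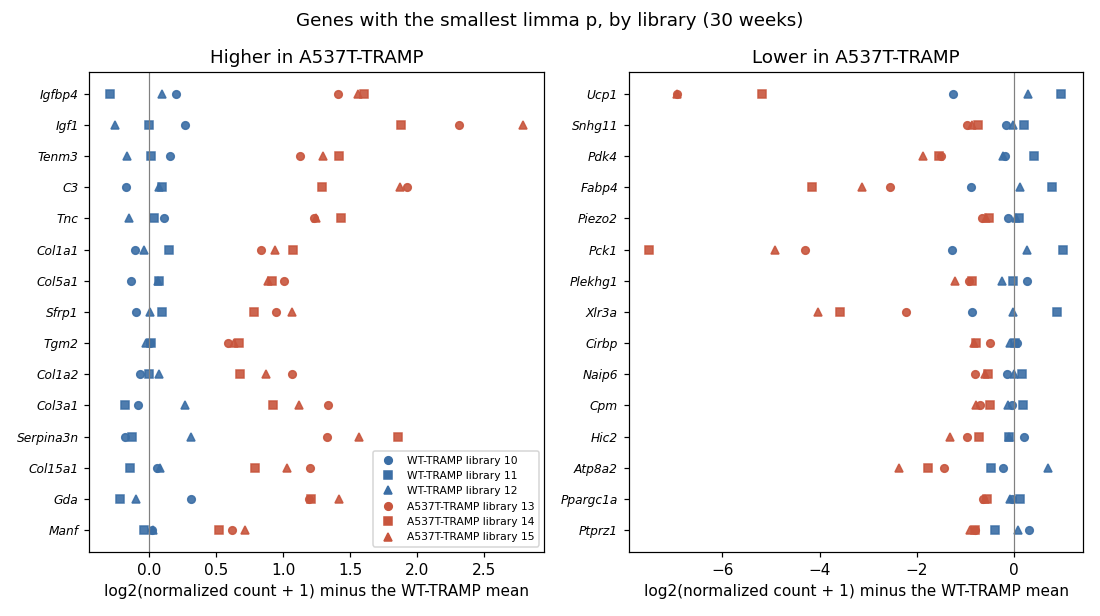
Log2(normalised count + 1) minus the WT-TRAMP mean (horizontal axes, log2 scale) for the 15 genes with the smallest limma p in each direction among those with non-overlapping groups; blue points are WT-TRAMP and red points A537T-TRAMP libraries. The higher genes include Igf1, Igfbp4, C3 and 5 collagen chains, and the lower genes include the adipocyte genes Ucp1, Fabp4 and Pck1.

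Chaperones of the endoplasmic reticulum and other genes of the unfolded protein response were higher in A537T-TRAMP in nearly every member. Unfolded proteins in that compartment activate IRE1, PERK and ATF6, and the transcription factors that follow bind elements in the promoters of chaperone genes. Of 33 tested members 31 were higher in A537T-TRAMP, 13 of them without overlap (7.36% of all genes tested), none was lower without overlap against 6.03% of all genes, and the median log2 fold change was 0.23. The mean log2 level of the list was 10.75, 10.93 and 10.82 in WT-TRAMP and 11.09, 11.01 and 11.12 in A537T-TRAMP, so the groups did not overlap, while for the luminal secretory mean they did.

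Known elements of this response were looked for around the RefSeq start of each gene, on both strands. The window ran from 250 bases before the start to 50 after it, and the printed stretches lie before the start. ERSE, in which CCAAT and CCACG lie 9 bases apart, was present in 37 of 27025 promoters (0.137%) and in 10 of the 27 list members with a promoter entry (37%). ERSE-II, in which ATTGG and CCACG lie 1 base apart, was present in 12 promoters (0.0444%) and in 2 list members (7.41%). Sequences are from RefSeq on GRCm38.p6, 5′ to 3′ on the gene's strand, with the matched element in capitals. The first 6 belong to genes whose groups did not overlap, and the last 2 to genes whose groups did.
Hspa5, chr2:34771840-34772089, plus strand: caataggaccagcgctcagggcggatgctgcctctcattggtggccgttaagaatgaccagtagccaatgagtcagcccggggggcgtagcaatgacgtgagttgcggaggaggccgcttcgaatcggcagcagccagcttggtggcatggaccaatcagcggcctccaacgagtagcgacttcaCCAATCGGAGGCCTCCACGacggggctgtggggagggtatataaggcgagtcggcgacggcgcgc
Calr, chr8:84846932-84847181, minus strand: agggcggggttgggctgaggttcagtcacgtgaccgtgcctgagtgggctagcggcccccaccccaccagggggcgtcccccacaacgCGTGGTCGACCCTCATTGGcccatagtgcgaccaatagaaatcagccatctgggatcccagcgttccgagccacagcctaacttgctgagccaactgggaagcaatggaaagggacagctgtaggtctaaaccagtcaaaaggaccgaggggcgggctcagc
Hsp90b1, chr10:86705518-86705671, minus strand: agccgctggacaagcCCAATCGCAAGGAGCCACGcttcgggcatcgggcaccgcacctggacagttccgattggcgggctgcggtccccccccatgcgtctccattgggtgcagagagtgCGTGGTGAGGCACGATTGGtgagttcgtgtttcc
Pdia6, chr12:17266476-17266524, plus strand: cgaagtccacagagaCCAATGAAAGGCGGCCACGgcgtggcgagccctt
Creld2, chr15:88819505-88819553, plus strand: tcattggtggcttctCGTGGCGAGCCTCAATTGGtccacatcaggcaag
Herpud1, chr8:94386362-94386402, plus strand: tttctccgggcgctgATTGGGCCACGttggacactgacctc
Canx, chr11:50325785-50325833, minus strand: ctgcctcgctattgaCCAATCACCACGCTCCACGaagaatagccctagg
Syvn1, chr19:6046517-6046565, plus strand: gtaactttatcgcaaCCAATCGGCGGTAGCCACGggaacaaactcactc

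Hspa5 (ENSMUSG00000026864.13), the main luminal chaperone BiP, whose element starts 65 bases before the gene start, had 7517, 8733 and 7917 normalised counts in WT-TRAMP and 12155, 10081 and 12616 in A537T-TRAMP, a log2 fold change of 0.52 ± 0.12 (limma adjusted p = 0.436, DESeq2 adjusted p = 0.00326). Calr, the calcium-binding lectin chaperone, had 6708, 9023 and 7680.5 against 11343, 9876 and 11611. Hsp90b1, with an element on each strand, had 7556, 9855 and 8573 against 10554, 10379 and 11035. All mutant libraries lay above all control libraries for these 3 genes, with library 14 the lowest of the mutants.

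Pdia6, a disulfide isomerase, had 3739, 5247 and 4543 normalised counts against 6036, 5975 and 6189. Creld2 had 482, 633 and 521 against 755, 729 and 812. Herpud1, of the degradation machinery, carried ERSE-II and had 1868, 1805 and 1875 against 2404, 2132 and 2202. None of these 3 overlapped between the groups. Some members with the element overlapped between the groups. Canx, the membrane-bound lectin chaperone, had 6337, 7042 and 6584 against 7817, 6861 and 7778, and Syvn1, an E3 ligase of the same pathway, had 614, 653 and 644 against 436, 959.9 and 553. Among members with ERSE, 5 of 10 were higher without overlap and the median log2 fold change was 0.30; among the 17 without it, 5 were and the median was 0.23, where the share over all genes was 7.36%.

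Manf, a secreted stress-induced factor of the endoplasmic reticulum, had the smallest p of the list, with 879, 843 and 883 normalised counts in WT-TRAMP and 1333, 1244 and 1423 in A537T-TRAMP (0.62 ± 0.09, limma adjusted p = 0.201). Xbp1, the transcription factor spliced by IRE1, had 2267, 2345 and 2284 against 2694, 2829.7 and 2718; gene-level counts do not separate its spliced form. Xbp1 also stands in the plasma cell list, whose immunoglobulin genes went the other way. Immunoglobulin Igkc had 498, 421 and 513 against 218, 120.4 and 118.

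ATF4 targets, the amino acid and translation arm of the stress response, were higher in 22 of 26, 8 without overlap (7.36% of all genes tested), with a median log2 fold change of 0.20. Ddit4, an inhibitor of mTORC1, had 149.6, 167 and 169 normalised counts against 238, 236 and 226, and Atf4 itself had 1098, 777 and 909.9 against 1235, 1126 and 1140.3. The targets Ddit3 and Asns overlapped between the groups. Ddit3 had 72.7, 64.6 and 76.8 against 60.6, 96.6 and 67.8, and Asns had 510.1, 421 and 547 against 656, 353 and 529. Slc3a2, Aars and Gars were higher without overlap, at log2 fold changes of 0.19, 0.26 and 0.21. The C/EBP-ATF core TGATGNAA was found in 1219 of all promoters (4.51%) and in 11 of 26 list members (42.3%). Among tested members with the core, 3 of 10 were higher without overlap and the median log2 fold change was 0.155. Among the 14 without it, 3 were and the median was 0.20. Nupr1 is shown as a member that holds it and did not overlap, with 241, 392 and 363 against 457, 463 and 449.
Nupr1, chr7:126625558-126625595, minus strand: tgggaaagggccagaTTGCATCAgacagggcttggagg

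Complement and acute phase genes had the highest median of the pathway lists, at 0.64, with 22 of 24 tested members higher, 9 of them without overlap (7.36% of all genes tested). C3 (ENSMUSG00000024164.15, chr17:57203970-57228136, minus strand), the central complement component, had 406, 489.6 and 482 normalised counts in WT-TRAMP and 1739, 1119.7 and 1682 in A537T-TRAMP, a log2 fold change of 1.70 ± 0.18 (limma adjusted p = 0.124, DESeq2 adjusted p = 2.72e-14). Serpina3n, an acute phase protease inhibitor outside that list, had 42.2, 43.9 and 59.7 against 122, 176 and 145. Osmr, the receptor of oncostatin M, had 158, 147 and 139 against 261, 345 and 276. The groups did not overlap for any of the 3, and library 14 was the lowest mutant for C3 but the highest for Serpina3n and Osmr. C4b, which shares 48.3% of its 31-base words with C4a and is therefore uncertain, had 227, 184 and 247 against 397, 337 and 320.0. The 2 lower members were Cfd, also called adipsin and made by adipocytes, with 83.3, 125 and 102 against 50.0, 4.77 and 14.95, and Hp, haptoglobin, which overlapped at 22.1, 81.6 and 69.3 against 31.95, 17.9 and 24.9. The list median was 0.38 without library 13. The macrophage mean was also higher without overlap, its list shares C1qa, C1qb and C1qc with this one, and the part of macrophages in the complement values was not tested.

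Most interferon response genes were lower in A537T-TRAMP, but their mean log2 level overlapped between the groups. It was 9.18, 8.875 and 8.99 in WT-TRAMP and 8.43, 8.96 and 8.878 in A537T-TRAMP. Of 38 tested members 31 were lower, 8 without overlap (6.03% of all genes tested) and none higher without overlap, and the median log2 fold change was -0.20. Irf7 (chr7:141262706-141266481, minus strand), the factor that amplifies type I interferon, had 2169.9, 2129.8 and 2039 normalised counts in WT-TRAMP and 1343, 1779 and 1285 in A537T-TRAMP, a log2 fold change of -0.54 ± 0.13 (limma adjusted p = 0.504, DESeq2 adjusted p = 0.0405). Ifit2 had 633, 523 and 622 against 461, 458 and 465. Both genes were lower in every A537T-TRAMP library, and library 14 lay nearest to the controls for Irf7. Isg15 had 393, 263 and 285 against 168, 378 and 248, and overlapped. Antigen presentation genes, which interferon gamma induces, had a median of 0.13 with 13 of 18 higher. The interferon median was -0.05 when library 13 was left out and -0.12 when library 10 was. It was -0.34 on removal of library 11 and -0.33 on removal of library 14.

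The core of the interferon-stimulated response element, in which GAAA is repeated after 2 bases, occurred in 1079 of all promoters (3.99%) and in 17 of the 28 list members with an entry (60.7%). Members with it had a median log2 fold change of -0.15 and those without it -0.30. Ifit3 is shown because it holds the core on the opposite strand at separate positions and did not overlap, with 1294, 782 and 1019 normalised counts against 395, 637 and 604, although it shares 61.8% of its 31-base words with Ifit3b and its count is uncertain.
Ifit3, chr19:34583358-34583431, plus strand: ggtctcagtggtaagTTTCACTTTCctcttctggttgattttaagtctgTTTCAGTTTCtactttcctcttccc

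Nuclear genes of the respiratory chain were slightly and widely higher. Complex I members were higher in 32 of 36, and their median was 0.16, and members of complexes II to V in 36 of 39 with a median of 0.14. Without overlap 4 and 6 genes, respectively, were higher, against 7.36% of all genes. Uqcrq, a small subunit of complex III, had 145, 103 and 133 normalised counts in WT-TRAMP and 231, 248 and 209 in A537T-TRAMP (0.86 ± 0.17, limma adjusted p = 0.357), and Ndufa3 of complex I had 256, 295 and 243 against 359.7, 361 and 376. The mean level of the complex I list was 8.28 in library 14, below all 3 controls at 8.34 to 8.40, and 8.65 and 8.57 in libraries 13 and 15. Without library 14 the medians were 0.25 and 0.27, without library 13 they were 0.09 and 0.06, and without library 15 that of complex I was 0.09.

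The mRNAs encoded by mitochondrial DNA, which ELAC2 helps to release, did not separate. Of 11 features 4 were higher, 0 were without overlap, and the median log2 fold change was -0.02. They made up 1.07% to 1.34% of the reads of each library. The mt-Nd5 mRNA had 4142, 5697 and 4952 normalised counts against 2967, 4919 and 3853, and mt-Co1 had 58724, 63585 and 59322 against 67387, 51824 and 61325. Mitochondrial ribosomal proteins were higher in 49 of 58, 12 without overlap (7.36% of all genes tested), with a median of 0.17 that was 0.08 without library 13. Genes of RNA processing that work with ELAC2 had a median of 0.05, with 22 of 33 higher. Tfam, which packages and transcribes mitochondrial DNA, had 371, 366 and 417 against 349, 260.0 and 242. Ppargc1a, the coactivator of mitochondrial biogenesis, was also lower in every mutant library, with 269, 304 and 263 against 179, 189.6 and 182 (-0.60 ± 0.12, limma adjusted p = 0.357). mRNA levels do not measure cleavage at the tRNA junctions.

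**Figure D4:**
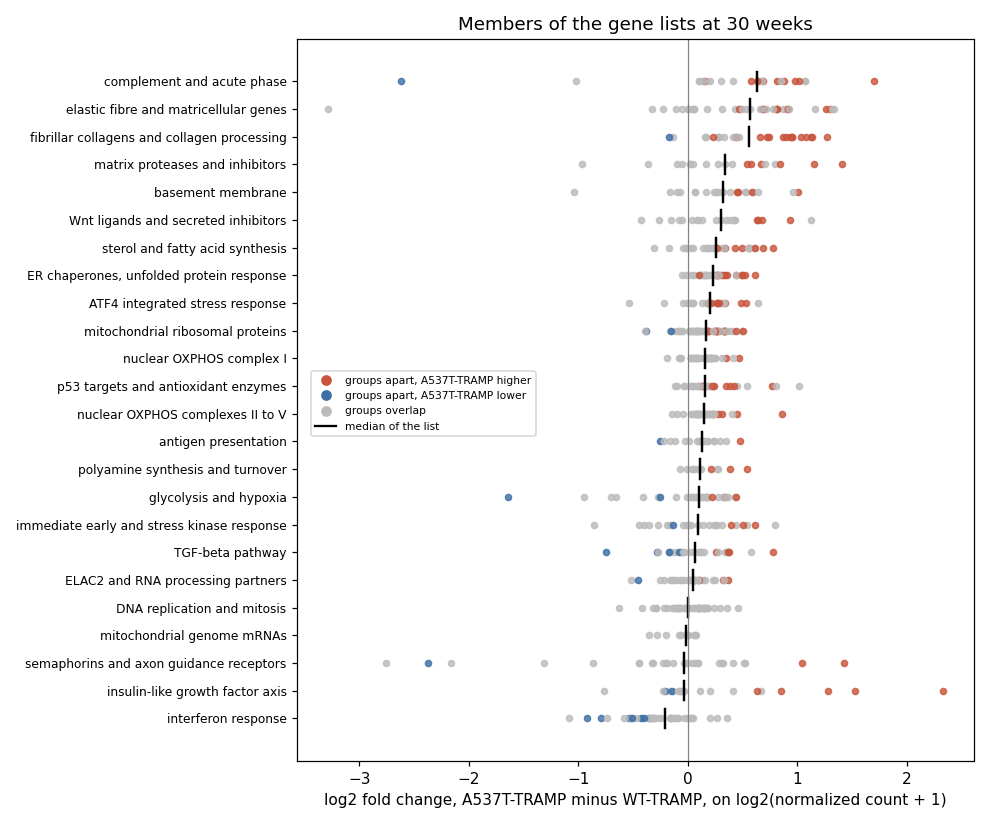
Log2 fold change, A537T-TRAMP minus WT-TRAMP, of each tested member of the gene lists shown (horizontal axis, log2 scale), sorted by list median; red points had every A537T-TRAMP library above every WT-TRAMP library, blue points the reverse, grey points overlapped, and black bars are medians. The complement, elastic fibre and matricellular, and fibrillar collagen lists have medians from 0.56 to 0.64 and interferon response has -0.20.

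Sterol and fatty acid synthesis genes were higher in 23 of 28, 8 without overlap (7.36% of all genes tested), with a median log2 fold change of 0.26 that was 0.13 without library 15 and 0.41 without library 13. Lss, lanosterol synthase, had 473, 385 and 389 normalised counts against 607, 564 and 746, and Insig1, the sterol sensor of the endoplasmic reticulum, had 424, 536 and 457 against 597, 642 and 1136. p53 targets and antioxidant enzymes were higher in 27 of 31, 7 without overlap (7.36% of all genes tested), with a median of 0.16; the T antigens of the transgene bind p53, which all groups share. Trp53inp1 had 731, 647 and 623 against 900.4, 808 and 898. Polyamine genes were higher in 10 of 12 with a median of 0.11, and glycolysis and hypoxia genes in 22 of 31 with a median of 0.10.

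Proliferation and immediate early genes did not separate the groups as lists. DNA replication and mitosis genes were higher in 21 of 42 and their median was 0.00. Mki67 had 6406, 3017 and 4445 normalised counts in WT-TRAMP and 3078, 6383 and 5246 in A537T-TRAMP, so the spread within each group was wide. Immediate early genes, which growth factor signals induce within minutes, were higher in 15 of 25 with a median of 0.10.

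Signalling lists were mixed in direction, apart from secreted Wnt modulators. Wnt ligands and inhibitors were higher in 16 of 21, 4 without overlap (7.36% of all genes tested), with a median log2 fold change of 0.30 that was 0.15 without library 11. Sfrp1, a secreted Wnt antagonist, had 200.2, 229 and 215 normalised counts against 414, 369.7 and 451 (limma adjusted p = 0.179), and Lgr5, an R-spondin receptor, had 73.8, 88.8 and 96.0 against 118, 165 and 136. The TGF-beta list had a median of 0.07 over 28 tested. Without overlap 4 members were higher (7.36% of all genes tested) and 4 lower (6.03%). Fst, an activin antagonist, had 202, 153 and 175 against 366, 243 and 311, whereas the ligand Tgfb2 had 447, 326 and 254 against 193, 206 and 197.

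The axon guidance list had 12 of 28 genes higher and a median of -0.03, and its smallest p values were those of a ligand and its receptor. Slit3, the secreted ligand, had 213, 178 and 198 normalised counts in WT-TRAMP and 588, 355 and 706 in A537T-TRAMP (1.43 ± 0.25, limma adjusted p = 0.255). Robo1, a receptor of the Slit ligands, had 1142, 244 and 542 against 96.7, 101 and 109.6 (-2.37 ± 0.49, limma adjusted p = 0.413). The 3 control values of Robo1 followed the order of the neuroendocrine marker mean, 6.49, 1.02 and 5.45, in the same libraries, and the part of those cells in it was not tested. Tenm3, a teneurin adhesion receptor of neurons, was higher, with 194, 176 and 155 against 382, 467 and 429 (1.28 ± 0.14, limma adjusted p = 0.124).

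Genes of fat were among the lower genes with wide differences. Ucp1 (ENSMUSG00000031710.4, chr8:83290352-83298452, plus strand), the uncoupling protein of thermogenic adipocytes, had 50.6, 238 and 148 normalised counts in WT-TRAMP and 0, 2.38 and 0 in A537T-TRAMP (limma adjusted p = 0.140). Fabp4, the adipocyte fatty acid carrier, had 216, 687 and 437 against 68.0, 21.5 and 44.9, and Pck1, which supplies glycerol for triglyceride in fat, had 73.8, 361 and 218 against 8.19, 0 and 4.98. In WT-TRAMP all 3 were highest in library 11 and lowest in library 10, so their spread within the controls was wide as well. Adipoq, which encodes adiponectin, had 30.6, 109 and 68.3 against 12.3, 0 and 1.99. With no filter on low values all 18 adipocyte genes were lower and their median log2 fold change was -2.48, members such as Ucp1 and Pck1 passed the filter only through WT-TRAMP, and the labels state that surrounding adipose tissue was removed at dissection. Pdk4, which restrains pyruvate oxidation in fasting and is also made in fat, had 101, 155 and 99.2 against 40.1, 39.4 and 30.9.

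Other lower genes are not members of that list. Cirbp, the cold-inducible RNA-binding protein, had 573, 556 and 515 normalised counts in WT-TRAMP and 388, 316 and 308 in A537T-TRAMP (-0.70 ± 0.12, limma adjusted p = 0.255). Snhg11, a small nucleolar RNA host gene, had 578, 742 and 633 against 331, 388 and 354 (-0.86 ± 0.13, limma adjusted p = 0.214). Piezo2, a mechanically gated channel, had 3762, 4419 and 4218 against 2603, 2876 and 2780.1. Each of these had the highest mutant library well below the lowest control. Plekhg1, Cpm, Hic2, Atp8a2 and Ptprz1 were also lower without overlap, at log2 fold changes of -1.002, -0.66, -1.002, -1.86 and -0.84. Naip6 and Xlr3a were lower too, at -0.64 and -3.28, but share 28% and 53.7% of their 31-base words with Naip5 and Xlr3b and are uncertain.

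Immune markers went in different directions by cell type. Macrophage genes were higher in 11 of 16, 5 without overlap (7.36% of all genes tested). The scavenger receptor Mrc1 had 128, 181 and 139.7 normalised counts against 392, 219 and 372, and Lyz2 had 306, 287 and 291 against 869, 477 and 583, although it shares 32.8% of its words with Lyz1. The pan-macrophage genes C1qa and C1qb had log2 fold changes of 0.31 and 0.18 with overlapping groups. B and plasma cell genes were lower in 5 of 7, 3 of them without overlap (6.03% of all genes tested). Ighm had 806, 936 and 843 against 539, 277 and 306. The 2 higher members, Xbp1 and Sdc1, were also without overlap (7.36% of all genes tested), at log2 fold changes of 0.26 and 0.33. T and cytotoxic cell genes had a median of 0.13 over 9 tested.

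Of the genes that the study itself discussed at this age 14 were tested, 8 of them higher, with a median log2 fold change of 0.13. Igf1, Vcan and Myb were named there for the knockout mice and the others at least in part for these samples, so the list is not independent evidence of its direction, and its median was -0.02 without library 11 and -0.01 without library 13. An unadjusted p under 0.05 in limma was reached by 3 of them, Igf1, Sparc and Vcan, against 7.21% of all genes tested. Vcan, a matrix proteoglycan, had 260.3, 91.5 and 133 normalised counts against 507, 229 and 432, and overlapped. Cdo1 ranged from 641 to 10819.5 and Tns1 from 2616 to 4479, without separation by genotype; Cdo1 was lowest in libraries 11 and 14, those without seminal vesicle transcripts. Sema3c, Sema5a, Sema3a and Sema6a had log2 fold changes of -0.04, -0.02, -0.23 and -0.44, and all of them overlapped between the groups. DESeq2 called 2 of the 14 genes higher and 0 lower, where it called 0.523% of all genes tested higher and 0.492% lower.

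Removing libraries 11 and 14, so that all 4 remaining libraries held seminal vesicle transcripts, kept most list medians on their side of 0. The collagen median was then 0.70, elastic fibre and matricellular 0.63, complement and acute phase 0.44, the endoplasmic reticulum list 0.30 with 32 of 33 higher, and interferon -0.41 with 33 of 38 lower. Nuclear respiratory chain medians were 0.25 for complex I, with 35 of 36 higher, and 0.29 for complexes II to V, with 38 of 39 higher. Among the pathway lists the replication median moved most, from 0.00 to -0.27, and the insulin-like growth factor list turned from -0.03 to 0.17. These 4 libraries were chosen after seeing the data, and WT-TRAMP libraries 10 and 12 are also the ones with neuroendocrine transcripts.

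**Figure D5:**
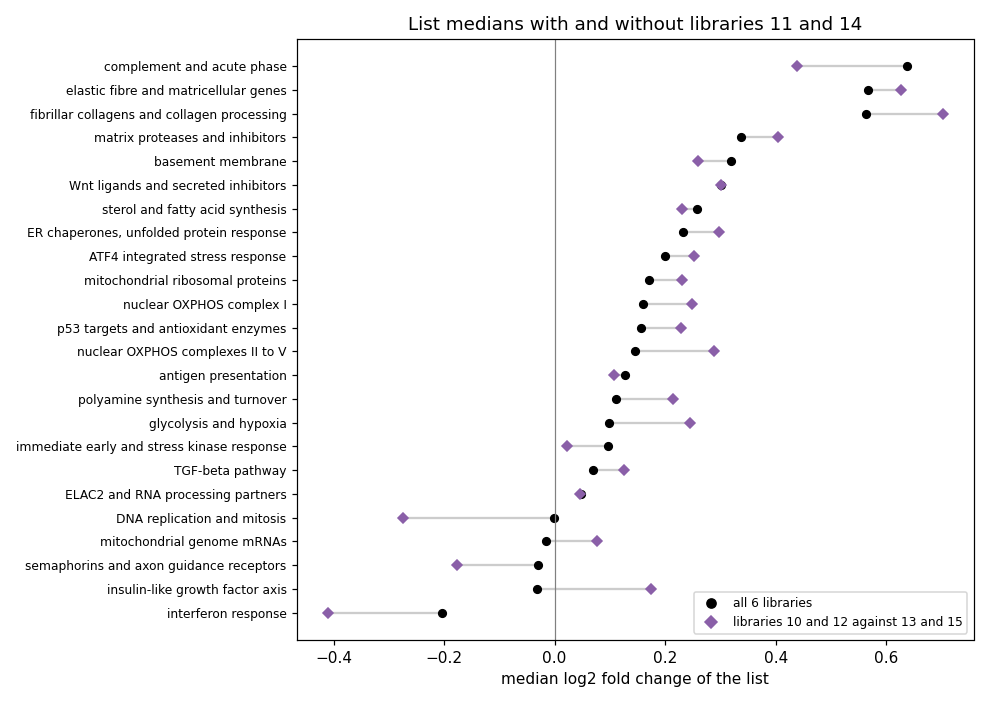
Median log2 fold change of each gene list shown (horizontal axis, log2 scale) over all 6 libraries (black circles) and over libraries 10 and 12 against 13 and 15 (purple diamonds). Matrix, chaperone and respiratory chain lists stay above 0 and interferon response stays below 0, while replication moves to -0.27.

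The 10-week groups of the same genotypes, other mice in a table normalised on its own, show which of these differences were present earlier. Igf1 had 144, 73.7 and 111 normalised counts in WT-TRAMP libraries 1 to 3 and 201, 191 and 159 in A537T-TRAMP libraries 4 to 6, a log2 fold change of 0.79. C3 had 98.8, 227 and 77.8 against 336, 345 and 152, and Igfbp4 had 77.9, 57.6 and 99.0 against 62.7, 275 and 119. Of the 15 higher genes in the plot of smallest p values 13 had the same sign at 10 weeks and 7 were again without overlap. Of the 15 lower genes 9 had the same sign and 0 were again without overlap. Over all 15438 genes tested at 10 weeks, 1068 were higher and 1008 lower without overlap. Ucp1 was at 0 in all 6 libraries at 10 weeks, and Fabp4 lay between 5.53 and 47.2.

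The lists divided by age. At 10 weeks 23 of 26 collagen genes were higher and their median log2 fold change was 0.71, and interferon genes -1.13 with 38 of 38 lower, the same directions as at 30 weeks. The endoplasmic reticulum list had 0.11, with 23 of 33 higher. Complement and acute phase had -0.09, complex I -0.05 and complexes II to V -0.12, where the 30-week medians were positive. A537T-TRAMP libraries at 10 weeks also held more smooth muscle transcripts, in 10 of 10 genes without overlap, against 1068 of all 15438 genes tested. They held more seminal vesicle transcripts in 9 of 9 genes. Fibroblast genes were higher there in 12 of 14 with a median of 0.98. Their mean log2 level of 5.59, 5.93 and 5.92 in WT-TRAMP did not overlap the 6.14, 6.83 and 7.06 of A537T-TRAMP. Endothelial genes were higher in 13 of 13. Marker levels in bulk tissue do not measure tissue make-up, and its part was not tested. The difference between the effects at the ages, fitted over the 12 libraries in limma, passed an adjusted p of 0.05 for 0 of 15941 genes, with 1014 at an unadjusted p under 0.05 and a smallest adjusted p of 0.596.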

How the data were processed

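Total RNA of ventral and lateral prostate lobes was sequenced by the authors. The submitters' processing notes name Trim Galore 0.4.1, cutadapt 1.18, FastQC, STAR 2.7.3a, Salmon, DESeq2 1.26 and the build GRCm38.p6 (mm10), without their roles. The deposited values are a signal, counts per gene scaled within each table, so values were compared only within a table. Columns were matched to groups by their headers, which carry no replicate number. Whole reads were recovered from the step of each column: 100% of values came out whole within a tolerance of 0.01. The authors' own comparison tables (log2 fold changes and s-values) were not used.

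Genes with a mean of at least 10 were tested in limma 3.58.1 (R 4.3.3) on log2(normalised count + 1), with a variance trend and Benjamini-Hochberg adjustment over all of them. Fold changes are on that scale, which understates those of low genes. On recovered reads, edgeR 4.0.16 called 0 genes and DESeq2 1.42.0 called 165 at an adjusted p of 0.05. The tests were tried on simulated data with known fold changes. "Without overlap" means that every library of a group lay above every library of the other. The effect of age was fitted as an interaction on both ages' tables, each normalised on its own.

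The members and gene lists were chosen with earlier results of these data known. Named genes were Elac2, the genes the study discusses at this age, in each direction the 15 genes with the smallest limma p among those with a mean of at least 50, non-overlapping groups and a regular gene symbol, the 4 members of each list with the smallest p and members needed to describe a role, and the 10 genes with the smallest edgeR p. Some genes that this rule names, and 1 gene list, are not reported here. Coordinates are GENCODE annotations of GRCm38. Promoters are RefSeq entries. Motifs were searched as described, on both strands, from 250 bases before to 50 after the gene start. The printed stretches hold only bases before the start. Shared sequence is the percentage of a gene's 31-base words found in another gene's transcripts. Library depth limits precision for genes with few reads. Alternatives were pseudocounts of 0.5 and 5, no filter, a minimum of 50, limma variants, TMM and quantile scaling, size factors without seminal vesicle genes, the other WT-TRAMP table, covariates, and leaving out libraries.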

Additional observations from a re-analysis of the deposited data

How the results depend on the processing

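Of 157 named genes compared over 22 alternatives, 136 kept their direction in all of them. Many were named for a small p and groups that did not overlap. Leaving out a library cannot turn the sign of such genes, so this count follows in part from the choice. Adjusted calls were 0 with limma as reported, 1 without the variance trend, 3388 with array weights, 165 with DESeq2 and 236 in libraries 10, 12, 13 and 15, an alternative chosen after seeing the data. The array weight fit stopped before its convergence tolerance and gave libraries 12 and 15 weights of 5.17 and 4.55 and the other 4 weights of 0.314 to 0.584. Leaving out a library gave 0 to 136 adjusted calls, 597 (without library 12) to 1784 (without library 14) at an unadjusted p under 0.05, and 3064 to 4968 genes without overlap, a number that grows by construction with fewer libraries. Unadjusted calls were 1783 with no filter, 6231 with array weights and 2527 in the 4 libraries, where 7916 genes did not overlap. The share of unadjusted calls that were higher was 44.7% with no filter, 44.4% in the 4 libraries and 37.3% without library 11. For the difference between ages, array weights gave 1645 calls, and leaving out a library gave 0 to 19, with 5 without library 4 and 19 without library 11. Array weights are estimated from these few libraries, and the cause of these changes was not tested. No paired analysis was possible because the column headers carry no replicate number.

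The other named genes turned sign under at least 1 alternative. Leaving out a library in turn gave Elac2 -0.059 to 0.11, negative without library 10 alone, Cdo1 -0.68 to 1.55, Tns1 -0.34 to 0.032, Runx1t1 -0.56 to 0.58, Pcdh17 -0.22 to 0.67, Sema3a -0.56 to 0.11, Sema3c -0.21 to 0.088, Sema5a -0.13 to 0.091 and mt-Atp8_6 -0.22 to 0.0096. Runx1t1, at 0.04, was -0.0057 with a pseudocount of 5, -0.12 with array weights, -0.24 in edgeR, -0.25 in DESeq2, -0.23 with the other WT-TRAMP table, -0.012 with the seminal vesicle covariate, -2.11 with the adipocyte covariate and -0.67 in the 4 libraries. Array weights gave -0.60 for Pcdh17, -0.026 for Junb and 0.18 for mt-Atp8_6. The 4 libraries gave 0.077 for Sema3c, 0.13 for Sema5a and 0.036 for mt-Atp8_6. The adipocyte covariate gave 0.51 for Sema3c, 0.66 for Sema5a, 1.14 for Cfd, -0.58 for Ly6a, -0.068 for Timp1, -0.27 for Mvk, -0.058 for Smox, 0.0080 for Tfam, -0.11 for Fastkd2, 0.61 for Acpp, -0.64 for Krt17, -0.030 for H2-DMa and -1.06 for Ccnb2; its level did not overlap between the groups, so covariate and genotype cannot be told apart.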

Other observations

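Several transcripts of peripheral neurons were read almost only in A537T-TRAMP. They were chosen after their values were seen, and they passed the filter on low values only through A537T-TRAMP. Their reading on that side alone therefore follows in part from the choice. Vip, a neuropeptide, had 0 normalised counts in all 3 WT-TRAMP libraries and 33.6, 62.0 and 2.99 in A537T-TRAMP libraries 13 to 15. Npy, the peptide of sympathetic nerves, had 1.05, 0.897 and 0 against 58.2, 31.004 and 3.99, and Dbh, the enzyme that makes noradrenaline, had 0, 1.79 and 0 against 35.2, 28.6 and 4.98. Ngfr, the low-affinity nerve growth factor receptor, had 11.6, 6.28 and 4.27 against 101, 113 and 19.9. Stmn2, a neuronal tubulin regulator placed in the neuroendocrine list, had 2.11, 0.897 and 1.07 against 41.0, 50.1 and 16.9, opposite to Chga and Insm1 of that list. At 10 weeks Stmn2 reached 60.6 in WT-TRAMP library 3 and 63.1 in A537T-TRAMP library 6. All of these lay above every control library at 30 weeks, with library 15 the lowest of the mutants.

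The immunoglobulin constant regions Ighg1 and Ighg2c, and the genes after them here, were also chosen after their values were seen. Ighg1, which passed the filter only through WT-TRAMP, had 87.5, 3.59 and 45.9 normalised counts against 0, 0 and 0.997. Ighg2c had 321, 109 and 226 against 2.46, 23.8 and 44.9. F13a1, a coagulation factor subunit made by resident macrophages, had 22.1, 46.6 and 20.3 against 142, 99.0 and 148, and its log2 fold change was -0.51 at 10 weeks. C7, a complement component, had 87.5, 109 and 101 against 607, 213 and 584. Hspa8, the constitutive cytosolic chaperone, had 11410.2, 12170.1 and 12239 against 16842, 16887 and 16592, with little spread in either group (log2 fold change 0.49 ± 0.08, limma adjusted p = 0.252).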
